A study of Mus musculus with 4 samples.

Results

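The Ikaros and Runx families are transcription factor genes of the blood and skeletal lineages, and 8 of them were examined by name out of 21883 protein-coding genes measured: Ikzf1 to Ikzf5 and Runx1 to Runx3. The data were 4 maps of H3K27me3, made by CUT&Tag, in which a transposase tethered to an antibody inserts sequencing adapters near the mark. The cells were germinal center B cells sorted from the spleens of 4 C57BL/6 mice. In 2 mice (KO, labelled Kdm6b B KO) B cells lacked Kdm6b, a demethylase of H3K27, and the other 2 were WT. Both genotypes received sheep red blood cells as the immunogen, with a boost on day 5, and were killed on day 12, and each library took 1 µg of antibody. The series title calls the cells pre-plasma. The sources used here give no Cre driver, deleted exons, sort markers, age or sex, and a peak map does not check the genotype. Each library had its own peak list, and the measure used was the covered share, the percentage of the bases of a stretch that lie under peaks. For each gene it was taken over the body, from annotated start to end, and over 4 kb centred on each end, and peaks were also listed over the body with 20 kb on either side. Values for the 4 libraries are given in one order throughout, KO replicates 1 and 2 and then WT replicates 1 and 2. The labels carry no replicate numbers, and those used here follow the order of the samples in the series. The lists covered 144, 236, 213 and 101.4 Mb, so the shortest list and one of the longer ones were both WT. Nothing pairs the replicates, and p-values measure only the spread between these mice. A library pools many cells, so a mark on fewer cells and a shorter or weaker mark per cell cannot be told apart.

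H3K27me3 is written by Polycomb repressive complex 2 and marks genes held silent, often genes that belong to another lineage. Ikaros proteins are zinc-finger factors that bind DNA through their N-terminal fingers, pair with each other through C-terminal fingers, and recruit chromatin complexes such as NuRD. Ikaros (Ikzf1) and Aiolos (Ikzf3) act in B cell development and in mature B cells, whereas Helios (Ikzf2) and Eos (Ikzf4) are best known from T cells, regulatory T cells above all, and Pegasus (Ikzf5) is expressed widely. RUNX proteins bind DNA through the Runt domain together with the partner CBFβ. Runx1 is needed for blood stem cells and early B cells, Runx2 drives bone formation, and Runx3 acts in T and NK cells and in neurons. The Runx genes are known for a distal and a proximal promoter. RNA was not measured in these libraries, so these roles are background only.

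Start sites and strand came from the RefSeq promoter table on GRCm38.p6 (mm10 is the browser name of that assembly), which had 8 start windows for 5 of the 8 genes: Ikzf1, Ikzf5, Runx1, Runx2 and Runx3. For Ikzf2, Ikzf3 and Ikzf4 the ends are called by coordinate, lower or higher. The 250 bases before 5 of these starts are printed here because the starts differed in both base composition and coverage. CG dinucleotides, the bases typical of CpG islands, are in capitals.

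Ikzf1 first start, chr11:11685675-11685924, plus strand: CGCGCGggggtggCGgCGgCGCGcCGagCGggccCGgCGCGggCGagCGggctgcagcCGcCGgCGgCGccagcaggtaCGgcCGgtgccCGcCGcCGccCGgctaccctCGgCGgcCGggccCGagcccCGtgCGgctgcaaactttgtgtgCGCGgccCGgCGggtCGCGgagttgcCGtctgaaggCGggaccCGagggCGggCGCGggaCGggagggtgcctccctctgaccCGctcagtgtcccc

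Runx1 distal start, chr16:92826075-92826324, minus strand: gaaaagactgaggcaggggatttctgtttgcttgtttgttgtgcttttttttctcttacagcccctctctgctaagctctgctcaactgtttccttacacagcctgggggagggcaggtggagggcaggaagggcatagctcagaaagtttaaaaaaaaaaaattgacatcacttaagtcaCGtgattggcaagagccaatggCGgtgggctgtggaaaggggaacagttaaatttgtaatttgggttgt

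Runx1 proximal start, chr16:92697330-92697579, minus strand: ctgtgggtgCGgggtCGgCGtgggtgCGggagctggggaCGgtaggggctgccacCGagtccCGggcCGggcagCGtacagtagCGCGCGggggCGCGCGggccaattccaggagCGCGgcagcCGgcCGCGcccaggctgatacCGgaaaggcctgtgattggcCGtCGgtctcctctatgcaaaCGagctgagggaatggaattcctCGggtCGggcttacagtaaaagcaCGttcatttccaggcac

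Runx3 distal start, chr4:135120395-135120644, plus strand: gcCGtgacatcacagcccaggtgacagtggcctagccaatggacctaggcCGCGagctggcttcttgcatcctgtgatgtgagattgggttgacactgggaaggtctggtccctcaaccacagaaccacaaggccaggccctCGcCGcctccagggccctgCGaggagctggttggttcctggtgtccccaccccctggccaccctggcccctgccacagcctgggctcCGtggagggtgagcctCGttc

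Runx3 proximal start, chr4:135152295-135152544, plus strand: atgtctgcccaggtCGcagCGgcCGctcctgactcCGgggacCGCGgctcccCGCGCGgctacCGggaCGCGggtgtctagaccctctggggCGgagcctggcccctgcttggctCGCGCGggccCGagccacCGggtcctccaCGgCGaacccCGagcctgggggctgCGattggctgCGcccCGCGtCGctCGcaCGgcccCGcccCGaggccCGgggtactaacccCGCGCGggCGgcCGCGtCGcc

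Over the full windows of 300 bases, which run 50 bases past the start, the first Ikzf1 start held 52 CG, more than 99.4% of the 32851 start windows in the table, whose median was 7. The proximal starts of Runx3 and Runx1 held 45 and 35, and the distal starts 8 and 2. The distal Runx2 start held 2 and the Ikzf5 start 27.

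The distal starts of all 3 Runx genes shared a pair of RUNX motifs, printed here with 4 bases on either side and with the motif ACCACA in capitals.

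Runx1 distal pair: aacaACCACAgaACCACAagtt

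Runx2 distal pair: aacaACCACAgaACCACAagtg

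Runx3 distal pair: ctcaACCACAgaACCACAaggc

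The 14 bases from the first to the last motif base were the same in the 3 genes, with 2 bases between the motifs. The pair began 29 and 24 bases into the transcribed part in Runx1 and Runx2, counted from 1 at the start, and at base -134 in Runx3. With both strands searched, ACCACA was in 16.8% of all start windows, and 2 matches within 20 bases were in 0.204%. No match was in the windows of the Ikzf1 and Ikzf5 starts or of the proximal Runx1 and Runx3 starts. The core of the Ikaros motif, TGGGAA, was in 25.6% of all windows, and among those of these genes in the Runx3 distal window alone.

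The B cell members of the Ikaros family lay in long stretches without H3K27me3. Ikzf3 (gene ID 22780, chromosome 11, 98464610 to 98546031) had no covered base in its body or at either end in any of the 4 libraries. It shares an empty body with 8081 genes, or 36.9% of all. Ikzf1 (gene ID 22778, chromosome 11, 11684962 to 11772930) had no coverage at either end in any library, and its body was covered to 0%, 1.47%, 0% and 0%. That coverage was a single peak of 1292 bp in KO replicate 2, between 69.6 and 70.9 kb from the 5′ end, and 2 more peaks in the same library lay in the flank past the 3′ end. From the first Ikzf1 start, the nearest covered base lay 123 kb away in KO replicate 1, 68.6 kb in KO replicate 2, 123 kb in WT replicate 1 and 132 kb in WT replicate 2. Over all start sites the median of this distance was 7.70, 2.77, 4.76 and 9.18 kb, and 77.3% to 82.6% of start sites were nearer to a covered base than that of Ikzf1. Among the 189 start windows with at least as many CG as this start, 38.1%, 45.5%, 41.3% and 29.1% were marked, meaning that peaks covered at least 25% of the 4 kb around the start, and 47.6% were marked in no library.

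Coverage lay outside the Ikzf3 gene, on the lower side in all 4 libraries and on the higher side in all but WT replicate 1. Toward lower coordinates the 20 kb flank was covered to 27.4%, 51.1%, 17.9% and 21.7%, and a merged region of 5816 bp there, shared by all 4 libraries, overlapped an end of Grb7, which encodes an adaptor of receptor tyrosine kinases. That end of Grb7, 4 kb wide, was covered to 87.1%, 100%, 86.3% and 45.8%. Toward higher coordinates the flank was covered to 5.96%, 19.4%, 0% and 2.86%. The sperm gene Zpbp2 in that flank had 1.33%, 20.5%, 0% and 0% of its body covered.

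**Figure D1:**
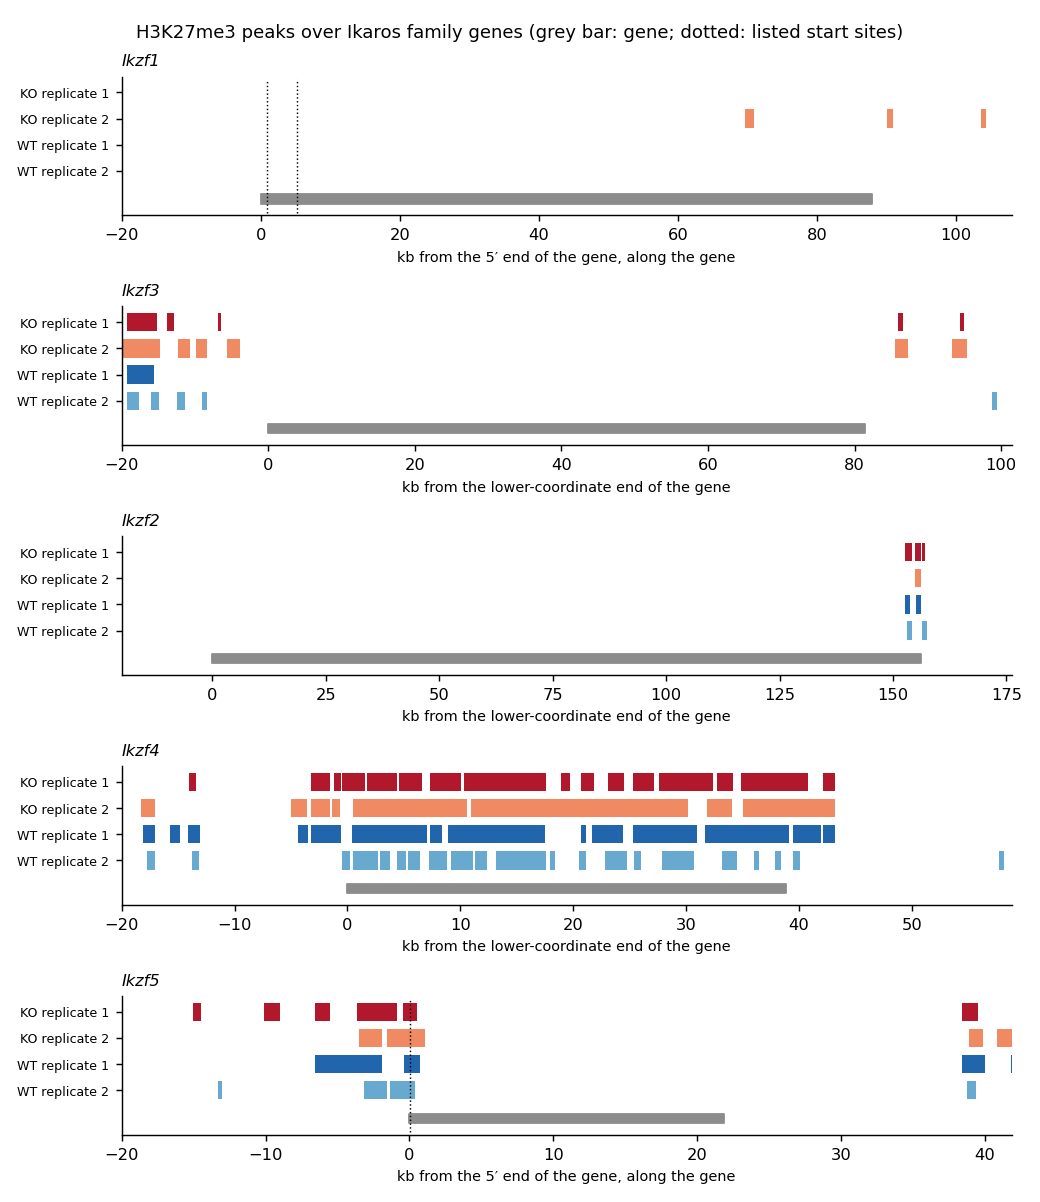
Peaks of each library (coloured bars, a row per library) over the 5 Ikaros family genes with 20 kb on either side, against distance in kb; the grey bar is the gene and dotted lines are the listed start sites. The bodies of Ikzf1 and Ikzf3 are empty apart from 1 peak of KO replicate 2 in Ikzf1, while Ikzf4 is largely covered in every library.

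Ikzf4 was the reverse, a gene whose body was largely covered by H3K27me3 peaks in every library. Ikzf4 (gene ID 22781, chromosome 10, 128630839 to 128669671) had 81.2%, 91.3%, 83.2% and 59.5% of its body covered, a mean that exceeded that of 94.8% of all genes. Peaks of the 4 libraries merged into 1 region of 43742 bp (128630319 to 128674060) that spanned the whole gene and the neighbouring Suox, which encodes sulfite oxidase and whose 3′ end lies 215 bp beyond it. All 38833 bases of the gene were covered in at least 1 library, and 19064 in all 4. In the single libraries the body held 12, 4, 7 and 17 separate peaks. The longest single peak was 7264, 19278, 8583 and 4457 bp, longer than 96.5% to 99.3% of peaks in its own list. The lower end was covered to 84.6%, 67.1%, 74.1% and 57.9%. The higher end was covered to 99.1%, 100%, 90.6% and 29.7%, so WT replicate 2 stood apart there. The window at the higher end also takes in part of Suox.

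Ikzf2 carried the mark at a single point. Ikzf2 (gene ID 22779, chromosome 1, 69531207 to 69687351) had 1.71%, 0.783%, 1.34% and 0.718% of its 156145 bases covered, near the median gene, since 50.4% of genes had a lower mean. All of this coverage lay in the last 4 kb before the higher end. With the body cut into 3 equal parts, the lower and middle parts were empty in every library. The 4 kb at the higher end were covered to 41.2%, 30.6%, 24.3% and 24.9%, with both KO values above both WT values. The peaks were short, at most 1502 bp, and formed 3 merged regions, of which none was called in all 4 libraries. KO replicate 2 and WT replicate 2 had no covered base in common there: the first covered 97.2% of a region (69686088 to 69687345) in which the second had none. Not a base of the body was covered in all 4 libraries.

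Set side by side, the mean body coverage of Ikzf1 and Ikzf3 was 0%, 0.734%, 0% and 0%, and that of Ikzf2 and Ikzf4 was 41.5%, 46.02%, 42.3% and 30.1%. The difference was 41.5, 45.3, 42.3 and 30.1 percentage points, above 0 in 4 of 4 libraries, with a mean of 39.8 ± 6.66 (SD over the 4 libraries). Genes are not replicates and these 4 were chosen with earlier results known, so the contrast is a description with no test. Ikzf4 carried it: its body coverage exceeded that of Ikzf2 by 79.5, 90.5, 81.8 and 58.8 points. At the gene ends, the 4 ends of Ikzf1 and Ikzf3 had 0%, and Ikzf4 was covered at both ends in every library. The higher end of Ikzf2 had 41.2%, 30.6%, 24.3% and 24.9%, so both WT values were just under the 25% used for a marked window. With the lists cut to one covered length, as described further on, that end had 11.9%, 0%, 0% and 24.9%. The body contrast was 7.20 points larger in KO than in WT, less than the gap between the 2 WT libraries.

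Ikzf5 was marked at its start, where it faces another gene. Ikzf5 (gene ID 67143, chromosome 7, 131388649 to 131410518, minus strand) had 2.53%, 4.91%, 3.36% and 1.72% of its body covered, and its 3′ end had none. The 5′ end was covered to 53.4%, 67.1%, 31.3% and 53.9%, with overlapping groups. Acadsb, a gene of branched amino acid breakdown, begins 82 bp away on the other strand. Of the 2 kb before the Ikzf5 start, which lie on the Acadsb side, 79.1%, 80.6%, 26.0% and 89.0% were covered, and of the 2 kb from the start on, 25.7%, 51.7%, 34.7% and 16.8%. The start window of 300 bases was covered to 100% in all 4 libraries. WT replicate 1 was the library with the least coverage before the start. The mark there cannot be assigned to Ikzf5 rather than Acadsb.

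The 3 Runx genes differed in where the mark lay. Runx1 (gene ID 12394, chromosome 16, 92601466 to 92826074, minus strand), the blood stem cell member, had 1.22%, 1.25%, 1.13% and 0.246% of its body covered. A lower mean was held by 49.0% of genes, so Runx1 lay near the median gene. Its distal start had 0%, 7.88%, 0% and 0% of the surrounding 4 kb covered. Its proximal start, 128.745 kb further along the gene, had 48.3%, 43.9%, 49.6% and 0%, so WT replicate 2 alone was empty. All of that lay on the upstream side: the 2 kb before the proximal start were covered to 96.7%, 87.8%, 99.2% and 0%, and the 2 kb from it on to 0% in every library. In the 3 covered libraries the peak ended 68, 246 and 18 bp before the start. With the lists cut to one covered length, as described further on, the Runx1 body had 1.22%, 0%, 0% and 0.246%. The block before the proximal start then remained in KO replicate 1 alone. Upstream of the gene, 2 merged regions of 13724 and 3951 bp held peaks of all 4 libraries. The longer was covered to 48.1%, 61.7%, 49.0% and 19.5%, and the other to 77.7%, 92.2%, 99.3% and 58.4%. The 20 kb before the distal start were covered to 48.4%, 58.9%, 49.995% and 23.9%.

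Runx2 (gene ID 12393, chromosome 17, 44495987 to 44814797, minus strand), the bone member, carried the mark at many places along its length but not around its listed start. Its body was covered to 23.5%, 33.4%, 43.4% and 12.6%, with WT replicates 1 and 2 as the highest and the lowest. The distal start was at 0% in all 4 libraries, and so were the 20 kb before it. Coverage first appeared 40.5, 36.9, 36.8 and 65.3 kb into the gene. The first 37680 bp of Runx2 overlap Supt3, a coactivator gene on the other strand. That overlap was covered to 0%, 1.97%, 1.26% and 0% and the rest of Runx2 to 26.6%, 37.7%, 49.05% and 14.3%. Of 67 merged regions in the Runx2 locus, 16 were called in all 4 libraries. Those best covered in every library lay from 72.8 to 83.5 kb and from 85.4 to 89.3 kb past the 5′ end, with at least 88.9% and 84.5%. The 3′ end was covered to 76.03%, 90.2%, 100% and 2.75%, so WT replicate 2 was nearly empty there. With the lists cut to one covered length, as described further on, this end had 76.03%, 0%, 0% and 2.75%. WT replicate 2 was then no longer the only library with little or no coverage.

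Runx3 (gene ID 12399, chromosome 4, 135120645 to 135177990, plus strand), the T and NK cell member, had 34.6%, 57.2%, 47.4% and 21.1% of its body covered. Of 3 equal parts of the body, the middle one was the densest, at 76.1%, 86.1%, 78.6% and 48.7%, and the last the sparsest, at 2.88%, 10.7%, 14.5% and 0%. The middle part holds the proximal start, 31.9 kb along the gene, whose surrounding 4 kb were covered to 81.7%, 88.7%, 74.2% and 28.5%. The distal start had 27.4%, 69.4%, 76.8% and 0%, with WT libraries at both extremes. A region of 17646 bp ended 43 bp before the proximal start and the next began 346 bp after it, so the start base itself was uncovered in all 4 libraries. Among the 6361 start sites of the table marked in all 4 libraries, 267 (4.20%) had an uncovered start base in all 4. The 20 kb before the gene were covered to 67.1%, 83.0%, 83.4% and 47.6%, in part by a region of 26512 bp that ran on beyond them.

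**Figure D2:**
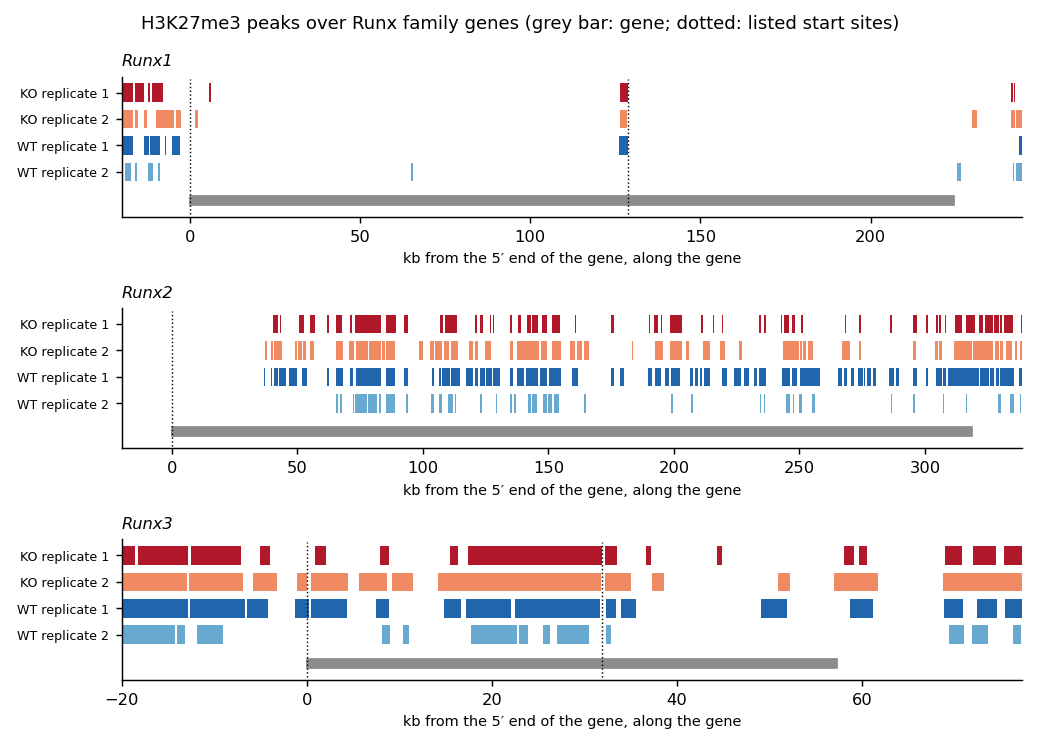
Peaks of each library (coloured bars, a row per library) over Runx1, Runx2 and Runx3 with 20 kb on either side, against distance in kb from the 5′ end along the gene; dotted lines are the listed start sites and the grey bar is the gene. Inside Runx1 the only block shared by 3 libraries ends at the proximal start, Runx2 is empty before 36.8 kb, and the densest block of Runx3 ends at its proximal start.

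The listed starts fell into 3 kinds. Both Ikzf1 starts and the Runx2 start had no coverage within 2 kb in any library, and the Runx1 distal start had 15.7% of the 2 kb past it covered in KO replicate 2 alone. The Runx1 proximal start was covered on its upstream side only. The starts of Ikzf5 and Runx3 had coverage on both sides in at least 2 libraries. The CG count did not order the starts by coverage: the first Ikzf1 start, without any, and the proximal Runx3 start, with the highest mean, were the CG-richest.

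**Figure D3:**
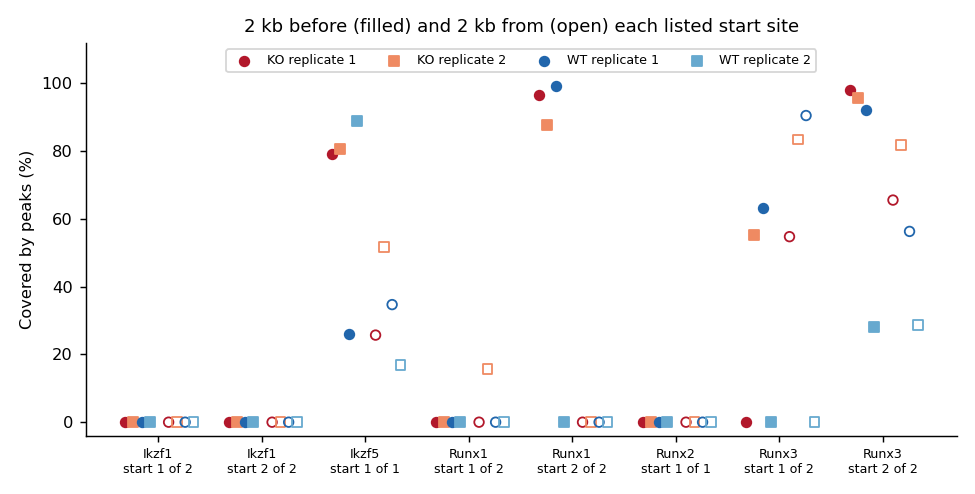
Percentage covered by peaks of the 2 kb before (filled) and the 2 kb from (open) each of the 8 listed start sites, with a point per library and the starts numbered along each gene. At the second Runx1 start the filled points of 3 libraries sit between 87.8 and 99.2% and every open point at 0%.

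Loss of Kdm6b raises the question whether these genes gained the mark, and no gene of the families passed the test. Over 20787 gene ends with coverage in any library, limma called 0 higher (0%) and 0 lower (0%) in KO at a Benjamini-Hochberg adjusted p of 0.05, with 700 and 109 at an unadjusted p under 0.05. Over 13802 gene bodies it called 2 higher (0.0145%) and 0 lower (0%), neither of the 2 in these families, with 216 and 47 unadjusted. Of the 16 ends of the 8 genes, 9 had coverage and were fitted, and of the 8 bodies, 7. None of them had an unadjusted p under 0.05. The lowest adjusted p was 0.907 for an end and 1.0 for a body. With 2 mice per genotype, an exact permutation of a single value cannot go below p = 0.333, and a value that misses the threshold does not show that the mark was the same.

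The differences that were seen went mostly toward KO, as they did over all genes with the full lists. At ends, 8 of the 9 fitted values had a higher mean in KO, as did 14506 of all 20787 fitted ends. The median difference of the 9 was 11.3 points, where that over all fitted ends was 6.63. At bodies, 7 of 7 were higher, as were 9923 of all 13802 fitted bodies, with a median of 0.734 points against 1.53 over all fitted bodies. The median over all genes moved with list breadth and with single libraries. At equal covered length it was 1.78 points for ends and 0 for bodies. Leaving out each library in the usual order gave medians over all fitted bodies of 4.57, -0.420, 4.76 and -0.179 points. The 2 KO values exceeded both WT values at 3 of the 9 ends, against a background of 13.9% of all fitted ends, and both lay below at none, against 2.46%. The largest of these was the higher end of Ikzf4, with a KO mean of 99.5% ± 0.654 and a WT mean of 60.1% ± 43.1 (all ± values are SDs, n = 2; difference 39.4 points, SE 25.4, limma adjusted p = 0.907). The 3′ end of Runx3 had 43.4% ± 22.3 and 7.58% ± 10.7 (difference 35.8 points, SE 15.0, limma adjusted p = 0.907). The higher end of Ikzf2 had 35.9% ± 7.51 and 24.6% ± 0.407 (difference 11.3 points, SE 5.90, limma adjusted p = 0.907). All 3 moved with a library or with list breadth. Leaving out WT replicate 2 brought the Ikzf4 difference to 8.96 points, and leaving out WT replicate 1 to 69.9. With the lists cut to one covered length, as described further on, the Runx3 end was uncovered in all 4 libraries, the Ikzf2 difference was -6.48 points, and the Ikzf4 difference was 56.6 points (limma adjusted p = 0.764).

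Among bodies, Runx1 alone had both KO values above both WT values, at 1.23% ± 0.0176 against 0.690% ± 0.627, where 12.3% of all fitted bodies had this order and 2.75% the reverse. The difference of 0.545 points (SE 0.941, limma adjusted p = 1.0) became 0.102 without WT replicate 2, which lacked the block at the proximal start. Ikzf4 had 86.2% ± 7.10 and 71.3% ± 16.7 (difference 14.9 points, SE 11.2, limma adjusted p = 1.0), which became 3.07 without WT replicate 2, 26.8 without WT replicate 1 and 7.30 at equal covered length. Runx3 had 45.9% ± 16.04 and 34.3% ± 18.6 (difference 11.6 points, SE 15.1, limma adjusted p = 1.0). Runx2 had 28.5% ± 7.04 and 27.99% ± 21.8, a difference of 0.487 points that became -14.9 without WT replicate 2. The Runx3 difference became -1.47 without that library. Of the starts, fitted over all 18193 covered start sites, the proximal Runx3 start had both KO values above both WT values, an order held by 13.9% of them, with 2.45% in the reverse order (difference 33.9 points, SE 19.6, limma adjusted p = 0.921). It was 11.03 points without WT replicate 2. At the proximal Runx1 start the difference of 21.3 points (SE 21.04, limma adjusted p = 0.921) became -3.48 without that library.

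**Figure D4:**
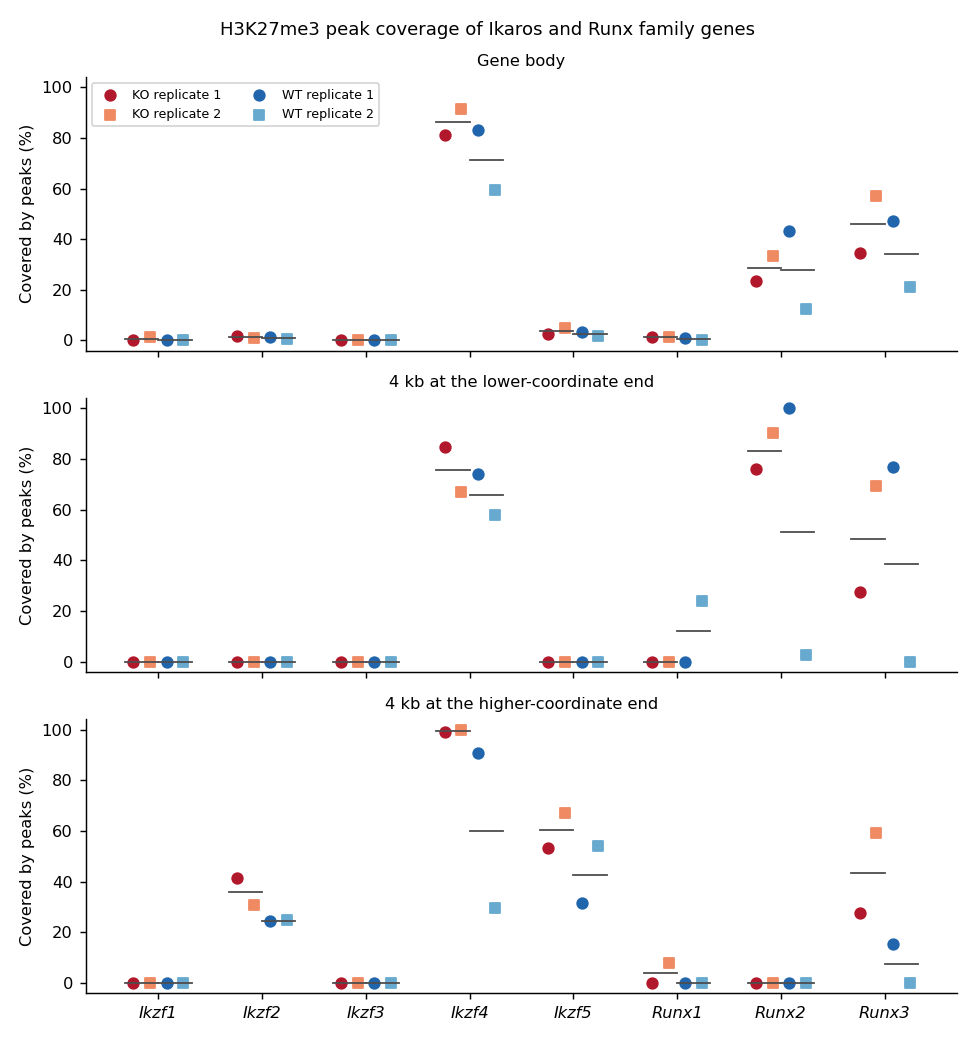
Percentage covered by peaks of the body and of 4 kb at each end of the 8 genes, with a point per library and a line at the mean of each genotype. Ikzf1 and Ikzf3 lie at or near 0 in all panels, Ikzf4 between 59.5 and 91.3% over its body, and the WT libraries are the highest and the lowest of the 4 for the Runx2 body.

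The breadth of the lists moved with some of these values. Body coverage of Ikzf4, Ikzf5 and Runx3 followed the order of total covered length, KO replicate 2, WT replicate 1, KO replicate 1 and WT replicate 2. The other genes with coverage did not follow it. For Runx2, WT replicate 1 came before KO replicate 2, for Runx1, KO replicate 1 came before WT replicate 1, and for Ikzf2, KO replicate 2 was the third of the 4. Ikzf1 had coverage in KO replicate 2 alone. With every list reduced, by the highest signal of its peaks, to the covered length of the shortest, Runx2 had 11.8%, 12.2%, 11.4% and 12.6% of its body covered, so the libraries nearly met. Ikzf4 kept 69.0%, 85.5%, 80.4% and 59.5%, and Runx3 kept 30.1%, 35.6%, 26.7% and 21.1%. Runx1 kept 1.22%, 0%, 0% and 0.246%. Ikzf1 and Ikzf3 were then at 0% in all 4 libraries, while at the higher end of Ikzf2 the mark remained in KO replicate 1 and WT replicate 2 alone, at 11.9% and 24.9%. The difference between the means of Ikzf2 and Ikzf4 and of Ikzf1 and Ikzf3 was still 34.5, 42.8, 40.2 and 30.1 points. The distal Runx3 start fell to 0% in all 4 libraries. The Ikzf5 end did not move, at 53.4%, 67.1%, 31.3% and 53.9%.

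A marked gene is one with at least 25% of the 4 kb at an end covered. Of the 8 family genes, 5, 5, 4 and 2 were marked, beside 33.9%, 46.7%, 41.1% and 26.9% of all genes. Ikzf4 and Ikzf5 were marked in all 4 libraries, and Ikzf1, Ikzf3 and Runx1 in none, as the Runx1 block lies inside the gene. Of 9 partners of RUNX proteins, 6, 9, 7 and 3 were marked. The Groucho corepressor genes Tle2 and Tle6 were covered at the lower end to 100% in 3 libraries or more, with 84.8% for Tle6 in WT replicate 2, and Tle4 to between 29.5% and 56.03% at the higher end. Cbfb, the shared RUNX partner, had 43.6% at its lower end in KO replicate 2 and 0% elsewhere.

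Of 18 genes of the corepressor complexes that Ikaros recruits, 4, 7, 4 and 2 were marked. These were 22.2%, 38.9%, 22.2% and 11.1%, beside 33.9%, 46.7%, 41.1% and 26.9% of all genes. Ctbp2, which encodes a corepressor, had 86.1%, 88.98%, 76.1% and 65.95% at its higher end. Hdac2, a histone deacetylase gene, was marked at its lower end in both KO libraries and neither WT library, at 47.4%, 74.4%, 11.4% and 20.1%. That pattern was held by 0.923% of all 43766 gene ends, and its reverse by 0.16%. Of those ends, 22979 had no coverage in any library and so could hold neither pattern. Among subunits of NuRD, the lower ends of Chd3 and Mbd3 and the higher end of Rbbp4 passed 25% in KO replicate 2 alone, at 78.5%, 48.5% and 32.1%, a pattern held by 5.86% of all gene ends. The higher end of Chd3 had 31.7%, 57.1%, 41.1% and 17.1%, so that gene was marked in 3 libraries. The higher end of Mta1 did so in WT replicate 2 alone, at 26.1%, while its lower end had 27.7%, 46.5%, 35.4% and 0%. Of 23 known targets of Ikaros or RUNX factors, 13, 17, 13 and 13 were marked (56.5%, 73.9%, 56.5% and 56.5%). Another 6 (26.1%) were marked in no library, beside 48.9% of all genes. The best covered targets include the T cell coreceptor gene Cd4, the early lymphoid gene Dntt, the bone factor gene Sp7 and the surrogate light chain gene Igll1. Each of these had an end covered to at least 76.4% in every library. The higher end of Il2, a T cell cytokine gene, passed 25% in both KO libraries and neither WT library, at 33.6%, 61.1%, 0% and 20.2%, but its lower end had 20.6%, 38.9%, 23.5% and 35.3%.

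Marker genes were checked against the label of the cells. Of 12 germinal center B cell markers, 1, 3, 0 and 0 were marked, beside 33.9%, 46.7%, 41.1% and 26.9% of all genes. Another 9 (75.0%) were marked in no library, beside 48.9% of all genes. Ms4a1, the gene of CD20, was marked at its higher end in KO alone, at 33.5%, 41.9%, 0% and 14.3%, a pattern held by 0.923% of all gene ends. Of 12 T cell markers 5, 7, 7 and 5 were marked, and 5 were marked in no library, a share of 41.7% beside 48.9% of all genes. Of 9 myeloid markers 9, 9, 9 and 7 were marked, and of 9 bone and cartilage markers 7, 7, 7 and 6. Cd3e, Cd14 and Col2a1 had an end covered to at least 84.7% in every library. The lists share members, 10 of the 23 targets being in another list. Coverage by a repressive mark gives no amount of any cell type, and the part of other cells in these values was not tested.

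**Figure D5:**
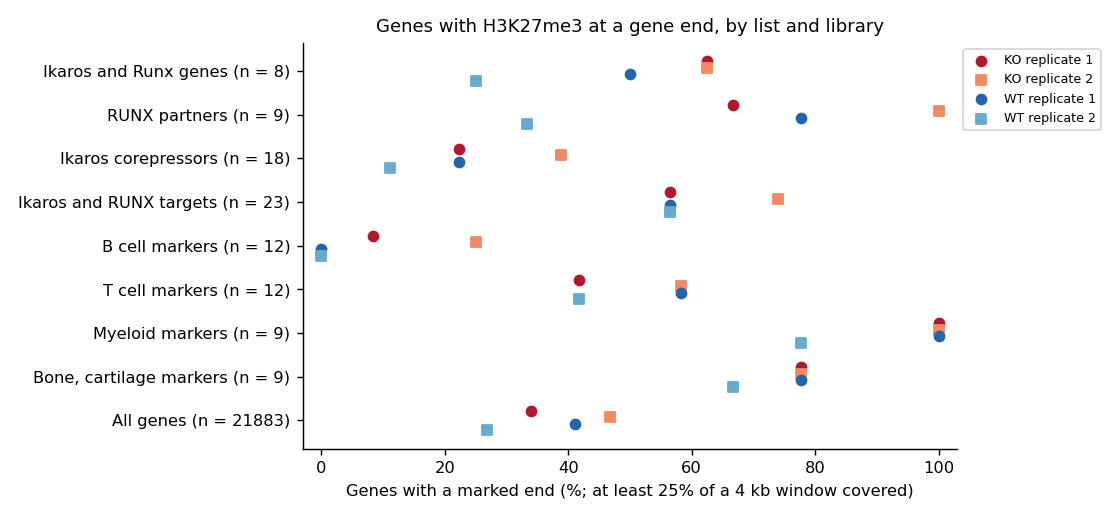
Percentage of genes of each list with a marked end, with a point per library and the number of genes in brackets. B cell markers lie at 0 to 25.0% and myeloid markers at 77.8 to 100%, with all genes between 26.9 and 46.7%.

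Genes whose 12 values, over the body and both ends in 4 libraries, came closest to those of an Ikaros family gene were sought among genes of 0.5 to 2 times its length. For Ikzf3, 930 of 4457 such genes (20.9%) had no coverage over body and ends either, so none is named. For Ikzf1 the closest were Cdc14a, Cmc2 and Fam107b, each with body coverage in KO replicate 2 alone (1.47%, 1.44% and 1.43%). For Ikzf2 they were Chd6, Srgap2 and Tpd52l1, with a largest difference of 8.35, 9.68 and 10.4 points. For Ikzf4, Septin3 and Neu2 were the closest, with 24.5 and 29.3 points, so no gene of like length came near to all its values.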

How the data were processed

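H3K27me3 CUT&Tag was made on 4 libraries of sorted germinal center B cells, 2 per genotype. The authors deposited a peak list per library, with each peak's position, total signal and highest signal; the scale of that signal is not given in the sources used here. Per the submitters' processing notes, the genome was mm10 and the tools were SEACR, deepTools, SAMtools 1.11, Bowtie2 2.4.2 and Trim Galore 0.6.6. Their roles, the control and the threshold are not stated there. Read depth is unknown, so no counting interval was computed, and precision rests on the spread between 2 mice.

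Peak positions on the autosomes, X and Y were used, and signal only ranked peaks within a list. Genes came from RefSeq on GRCm38.p6, start sites from its promoter table. Covered shares of all gene ends, bodies and start sites were compared with limma 3.58.1 (lmFit, eBayes) in R 4.3.3, leaving out features with no coverage, with Benjamini-Hochberg adjustment over each table. eBayes draws each spread toward a value shared by all features. The fit was also run on simulated data, the outcome of which is not reported here. Python 3.11.15, numpy 2.4.6 and pandas 2.3.3 handled tables.

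The genes, lists and tests were chosen with earlier results of these data known, and the start sites were added after the files were seen. The family genes were always named. List genes were named where an end was marked in all libraries (up to 6 ends per list), in one genotype only, or in a single library (up to 4). For each of Ikzf1 to Ikzf4, 3 genes with the smallest largest difference over 12 values were named, and none where they tied; 1 of those for Ikzf4 is not reported here. Alternatives were window size, a stricter peak threshold, equal covered length, joined gaps, covered length as a covariate, no filter, other marked and overlap thresholds, and each library left out.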

Additional observations from a re-analysis of the deposited data

How the results depend on the processing

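No paired analysis was possible because the labels carry no replicate numbers. Of the values recomputed, 265 stayed alike, 28 moved and 17 changed direction; the cause was not tested except where an alternative's own construction shows it. No adjusted p of a family gene passed 0.05 in any alternative. Read depth is unknown and could not be varied. Differences are KO minus WT in percentage points.

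With lists cut to equal covered length, the difference was 0 for the Ikzf1 body, -0.359 for the Ikzf2 body, -6.48 for the Ikzf2 higher end, and 0 for the Runx1 5′ end and both Runx3 ends. With only the 50% of peaks with the highest signal it was 0 for the Ikzf1 body and the Runx1 3′ end, -1.94 for the Runx2 body and -9.3 for the Ikzf2 higher end. With covered length as a covariate it was -6.36 for the Runx2 body and -9.61 for the Runx3 5′ end, and with gaps up to 1000 bp joined -0.187 for the Runx2 body. With 1000 bp to each side it was 0 for the Runx1 5′ end and -1.15 for the Runx3 5′ end. With 5000 bp it was 4.32 for the Ikzf1 higher end, and 6.79 and 5.6 for the Ikzf3 higher and lower ends.

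Leaving out 1 library at a time gave ranges of 0 to 1.47 for the Ikzf1 body, -0.246 to 0.683 for Ikzf2, -0.00457 to 2.37 for Ikzf5, -14.9 to 15.9 for Runx2 and -1.47 to 24.8 for Runx3. At ends the ranges were 0 to 7.88 (Runx1 5′), -23.9 to 0 (Runx1 3′), -16.9 to 80.4 (Runx2 3′) and -28.5 to 48.4 (Runx3 5′). WT replicates 1 and 2 set both limits for the Runx2 and Runx3 ranges.

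The limma count of bodies higher in KO, 2 with all libraries, was 0 without any 1 library, 0 with the covariate, 0 at equal covered length, 4 with gaps joined and 8 with all features kept. At equal covered length 1 body was lower. With all features kept, 23 ends were higher and 5 lower. Keeping features that are empty in all 4 libraries (22979 ends, 8081 bodies) lowered the spread that limma shares across features from an SD of 6.98 to 0.00753 points for ends and from 1.74 to 0.0203 for bodies, and every feature then called had a residual SD of at most 0.2. Merged regions called with at least 50% covered fell from 53 to 25 in WT replicate 2 and from 29 to 10 in all 4. Family genes marked at 50% of a window numbered 3, not 5, in KO replicate 1, and at 10% they numbered 4, not 2, in WT replicate 2.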
